A study of Canis lupus familiaris with 5 samples.

Results

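Protein tyrosine phosphatases and dual-specificity phosphatases were described in 5 canine lymphoid tumour cell lines. They were taken as all genes whose array annotation name begins with DUSP, PTPN or PTPR. The rule found 55 genes on 97 probe sets, out of 15115 genes with a probe set of their own. The probe set with the highest mean stood for the gene, and 27 of the 55 had further probe sets that were checked against it. DUSP2, DUSP4 and PTPRCAP, which belong to the names looked for, were not analysed here because no probe set carried their name alone. The B-labelled lines were 17-71, from a B-lymphoid malignancy, and GL-1, from a B-cell leukemia. The T-labelled lines were CL-1, from a primitive a/b T-cell leukemia, CLGL-90, labelled LGL (large granular lymphocyte) leukemia and T-cell, and CLL-1390, from a primitive T-cell leukemia. All 5 lines are established dog lines, grown untreated in RPMI with 10% FBS. Each was measured once, as total RNA on 1 Affymetrix canine array. With 1 array per line, every spread is a spread between lines, which also differ in donor and history.

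Protein tyrosine phosphatases remove phosphate from tyrosine residues and so set the level of signalling by tyrosine kinases. In lymphocytes the receptor-type enzyme CD45, encoded by PTPRC, keeps the Src-family kinases LCK and LYN ready for signalling by antigen receptors. The cytosolic enzymes SHP-1 (PTPN6) and LYP/PEP (PTPN22) act against the same kinases and their substrates. Dual-specificity phosphatases act on both tyrosine and threonine, and the typical members, the MAP kinase phosphatases, switch off ERK, JNK and p38, often after having been induced by the kinases they restrain.

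The deposited values are log2 intensities, so a difference of 1 is a doubling on the intensity scale. The 59 control probe sets for bacterial and artificial sequences lay at a median of 4.07 to 4.29, and their highest values were 6.39 to 6.76. The highest on each array served as a guide to background. The labels do not state whether any of these controls had been added to the samples, and they were taken as not added. Values called background below lie at or under that guide, and so rest on this assumption. Of the 55 genes, 20 lay above that guide in all 5 lines, 17 in 1 to 4 lines and 18 in none. Levels of different genes cannot be set against each other, since probe sets differ in response. Of 8 T-cell marker genes, 8 lay above the guide in CLGL-90, 6 in GL-1, 5 in CLL-1390, 4 in CL-1 and 3 in 17-71. Of 7 B-cell marker genes with a probe set, 3 did so in GL-1, 2 in 17-71, and 1 or 2 in each T-labelled line, and CD79B and CD22 did so in no line. The labels of lineage are therefore used below as names of groups.

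PTPRC, the leukocyte gene that encodes CD45, was present in every line. It stood at 9.91 in 17-71, 10.79 in GL-1, 11.11 in CL-1, 10.16 in CLGL-90 and 8.88 in CLL-1390. CLL-1390 had the lowest value by 1.03, and its other 2 probe sets were also lowest there, at 7.53 and 6.78. CL-1 was highest in all 3 probe sets. The lines are bulk cultures, so fewer cells with a transcript and less of it per cell cannot be told apart, here and in all values that follow.

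DUSP6, PTPN6 and PTPN4 varied most between the lines, and PTPN18, PTPRA and DUSP18 were among the steadiest. Of these last, PTPN18 and DUSP18 lay under the highest control in every line, so their small range is one of background values. In all, 17 of the 52 tested phosphatase genes (32.7%) differed by log2 2 or more between the highest and lowest line, where 14.2% of all 14162 tested genes did so. The median range was 1.02 over the 55 and 0.76 over all tested genes, and no test was made of this difference. A gene was tested if it reached log2 5 on at least 2 arrays, and DUSP15, DUSP21 and PTPRQ, at 3.38 to 4.80 in every line, did not. Among the MAP kinase phosphatases 4 of 8 varied by log2 2 or more, among the atypical dual-specificity phosphatases 2 of 11, among the cytosolic PTPN enzymes 7 of 16 and among the receptor-type PTPR enzymes 4 of 20. Of the 17, 15 also reached log2 8 in some line, where 13.2% of all tested genes met both conditions. PTPN11 lay just inside the limit at 2.04 and DUSP16 just outside at 1.73. With every value below the highest control of its array raised to that control, 11 genes were left, a count given without the matching share of all genes.

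**Figure D1:**
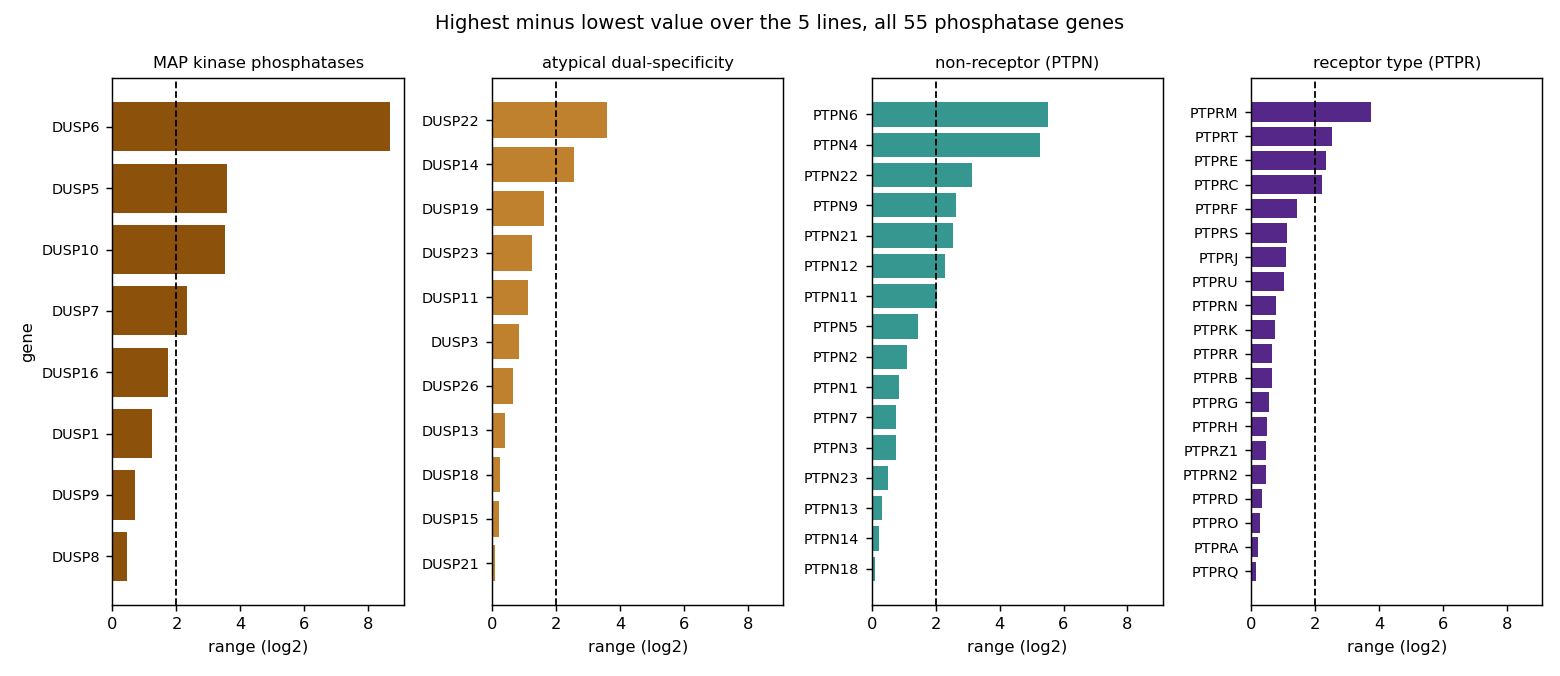
Highest minus lowest log2 value over the 5 lines (bars) for all 55 phosphatase genes in 4 classes, with the limit of 2 as a dashed line. DUSP6 has the longest bar at 8.67, and most receptor-type genes lie below 2.

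Each line held the highest value for some of the 17 varying genes, and each the lowest. CLGL-90 held the highest value for 7 (DUSP6, DUSP14, DUSP22, PTPN4, PTPN9, PTPN12 and PTPRT), where it did so for 15.2% of all 2006 varying genes. CLL-1390 held the lowest value for 8, where it did so for 22.1% of all varying genes (DUSP5, DUSP7, PTPN6, PTPN9, PTPN11, PTPN21, PTPRC and PTPRE). In DUSP5, DUSP7, PTPN11, PTPN21 and PTPRE the CLL-1390 value lay under its highest control (6.70). In all of these but DUSP5 the next line was under its own highest control too, so that the order is one of background values. No test was made of these counts. Several of the orders rest on small gaps, such as the 0.39 between CLGL-90 and the next line in DUSP6 and the 0.13 between CLL-1390 and the next line in PTPN11.

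**Figure D2:**
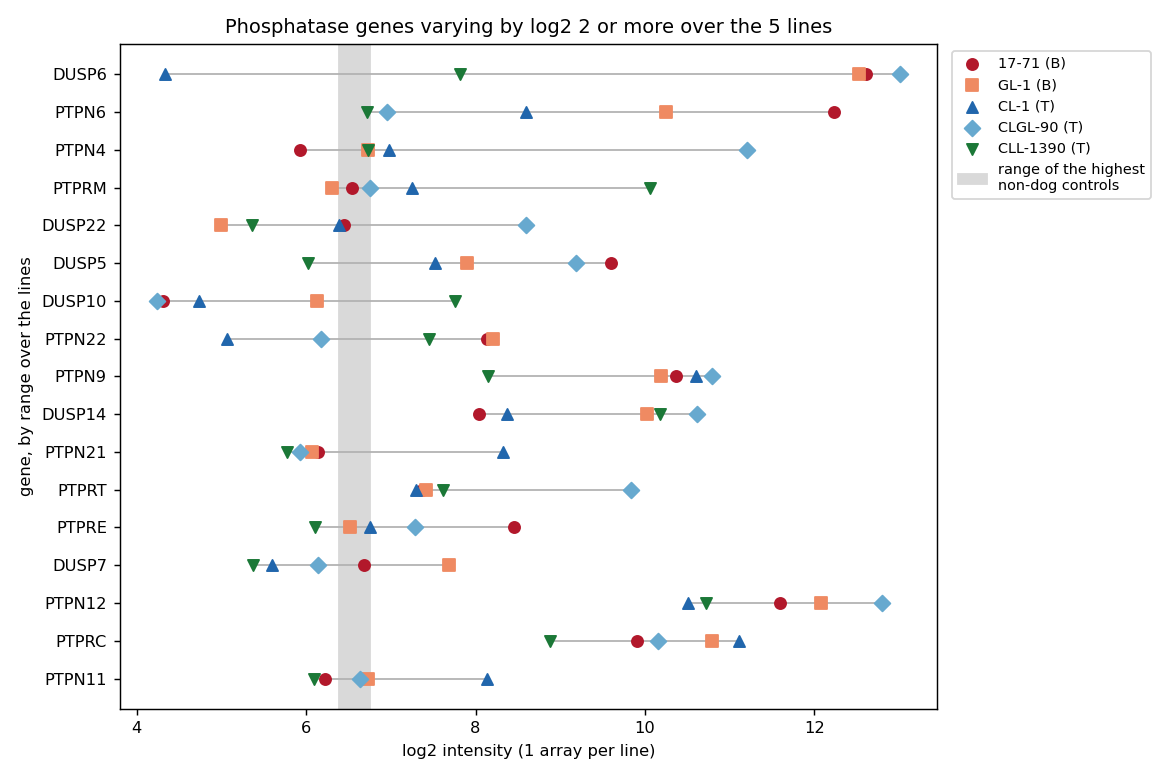
Log2 intensity (horizontal axis) of the 17 phosphatase genes that varied by log2 2 or more, 1 marker per line, with the range of the highest non-dog controls (6.39 to 6.76) in grey. DUSP6 splits into 3 lines at 12.53 to 13.01, CLL-1390 at 7.81 and CL-1 at 4.33, and PTPN4 and PTPRM each have 1 line far to the right of the other 4.

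DUSP6, the cytoplasmic phosphatase of ERK and itself a transcriptional target of ERK signalling, varied most. It stood at 4.33 in CL-1 and 7.81 in CLL-1390, against 12.62 in 17-71, 12.53 in GL-1 and 13.01 in CLGL-90. The 3 high lines included both B-labelled lines and 1 T-labelled line. The second probe set of DUSP6 gave the same picture, with 6.02 in CL-1, 7.15 in CLL-1390 and 11.98 to 12.40 in the other 3 lines. Both CL-1 values lay under the highest control of that array (6.39), so DUSP6 was at background there, and the size of the gap to CLL-1390 (3.48) shrinks to 1.42 with CL-1 set to that control.

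DUSP5, a nuclear phosphatase of ERK that is also induced by it, followed another order. It stood at 9.60 in 17-71, 7.90 in GL-1, 7.52 in CL-1, 9.19 in CLGL-90 and 6.02 in CLL-1390. CLL-1390 was thus lowest by 1.49 and under its highest control, whereas CL-1, at background in DUSP6, was near GL-1 in DUSP5. DUSP7, a cytosolic ERK phosphatase, was highest in GL-1 at 7.69, followed by 17-71 at 6.68, and lay at 5.60 in CL-1, 6.14 in CLGL-90 and 5.37 in CLL-1390. DUSP10, which acts on JNK and p38, was above background in CLL-1390 alone, at 7.75. Its values in 17-71, GL-1, CL-1 and CLGL-90 were 4.31, 6.12, 4.73 and 4.24.

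DUSP1, an immediate-early gene whose product inactivates p38, JNK and ERK, gave different results by probe set. The probe set of highest mean read 9.40 in 17-71, 8.59 in GL-1, 8.82 in CL-1, 9.18 in CLGL-90 and 8.18 in CLL-1390. A second probe set read 11.00 in 17-71, 7.76 in GL-1, 8.41 in CL-1, 6.30 in CLGL-90 and 6.37 in CLL-1390, and the other one 8.83 in 17-71 and 6.10 to 6.96 in the other 4 lines. All 3 were highest in 17-71, by 0.21, 2.59 and 1.86. DUSP16, a JNK and p38 phosphatase, was also highest in 17-71 (8.05, against 6.33 to 7.34 in the other lines). DUSP8 (6.87 to 7.31) and DUSP9 (7.09 to 7.79) hardly varied.

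Some genes of the ERK pathway were split over the lines as DUSP6 was, but by small gaps, and most were not. Of the 22 genes on a list of ERK response genes and other ERK brakes, 21 were on the array. Of these, 9 varied by log2 2 or more, where 14.2% of all tested genes did so. In 3 of the 21 (RASA1, FOSL1 and FOS) the values in 17-71, GL-1 and CLGL-90 all lay above those in CL-1 and CLL-1390, where 8.66% of all tested genes had this split, a pattern chosen after the values were seen. RASA1, a brake of RAS, read 10.87 in 17-71, 11.37 in GL-1 and 12.40 in CLGL-90, against 10.70 in CL-1 and 10.69 in CLL-1390. FOSL1 read 7.43 in CLGL-90 against 7.28 in CLL-1390, and FOS 7.67 in GL-1 against 7.55 in CL-1. Both further probe sets of RASA1 lacked the split, with 17-71 (8.77 and 6.42) below CL-1 (8.92 and 6.85). The further probe set of FOS lacked it too, with GL-1 at 7.05 below CLL-1390 at 7.29. IER2, an immediate-early gene, shared with DUSP6 the lowest value in CL-1, at 10.42, against 11.16 to 12.81 in the other 4 lines. CL-1 was also the lowest line for 27.2% of all 2006 genes varying by log2 2 or more. ETV5 and ETV4, ETS factors induced by ERK, stood at 11.35 and 11.94 in 17-71. ETV5 read 6.63, 7.26, 6.87 and 6.29 in GL-1, CL-1, CLGL-90 and CLL-1390, and ETV4 lay at 7.64 to 8.76 there. These low values include GL-1 and CLGL-90, where DUSP6 was as high as in 17-71. CCND1, which encodes cyclin D1, stood at 12.34 in 17-71 and 9.04 in CL-1, against 7.67, 7.88 and 6.85 in GL-1, CLGL-90 and CLL-1390. FOS, an immediate-early factor, read 12.36 in 17-71 and 9.42 in CLGL-90, and 7.67, 7.55 and 7.003 in GL-1, CL-1 and CLL-1390. In CL-1, where DUSP6 was at background, JUNB (9.61) and JUN (8.39) had their highest values, JUN close to its 8.32 in 17-71. SPRY4, another ERK-induced brake, lay at background in every line. Upstream, RASGRP1, an activator of RAS in lymphocytes, read 12.77 in CL-1, against 7.56 in 17-71, 7.48 in GL-1, 8.28 in CLGL-90 and 7.15 in CLL-1390. RASGRP3 was above background in CL-1 alone, at 7.18, against 5.47, 4.72, 5.12 and 4.77 in 17-71, GL-1, CLGL-90 and CLL-1390. RASGRP2 was lowest in 17-71, at 8.54, against 11.36, 10.62, 11.50 and 11.26 in GL-1, CL-1, CLGL-90 and CLL-1390.

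**Figure D3:**
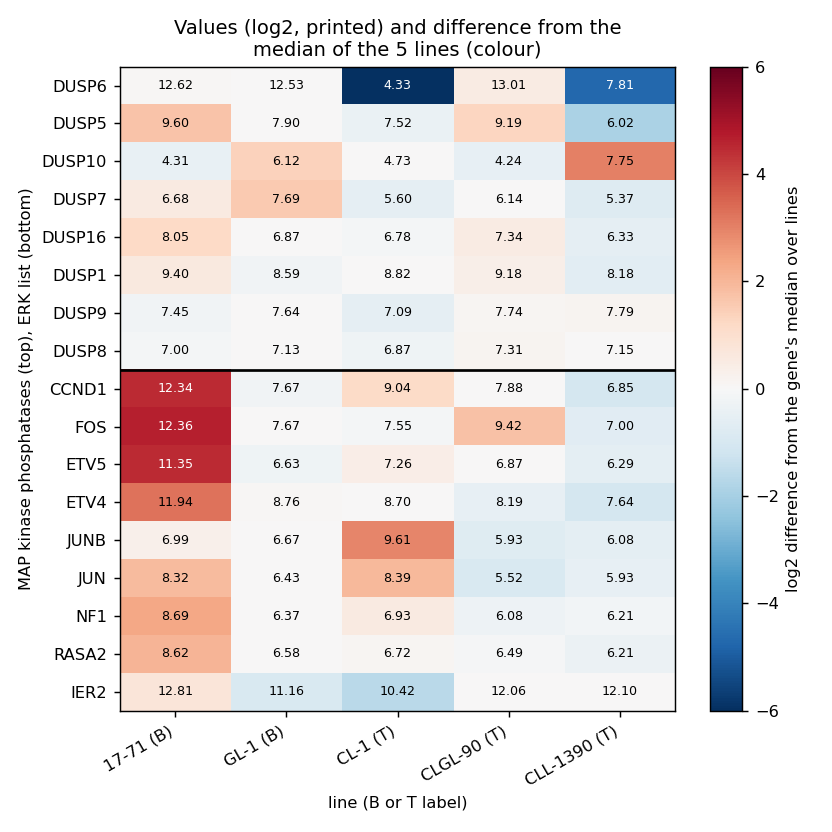
Log2 values (printed in the cells) of the 8 MAP kinase phosphatases, above the black line, and of the 9 ERK-list genes that varied by log2 2 or more, below it, in the 5 lines. Colour gives the log2 difference from the median of the gene over the 5 lines, on a scale that ends at 6, with DUSP6 darkest blue in CL-1 and FOS, CCND1 and ETV5 darkest red in 17-71.

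Among the atypical dual-specificity phosphatases, DUSP14 and DUSP22 varied most, and both are known as brakes of T-cell receptor signalling. DUSP14, which acts on the TAK1 complex, stood at 8.04 in 17-71, 10.03 in GL-1, 8.37 in CL-1, 10.61 in CLGL-90 and 10.18 in CLL-1390. Its second probe set separated the same 3 high lines (8.95 to 9.37) from 17-71 (7.07) and CL-1 (7.35). DUSP22, which dephosphorylates LCK, was above background in CLGL-90 alone. It read 8.60 there, against 6.44 in 17-71, 4.99 in GL-1, 6.39 in CL-1 and 5.36 in CLL-1390, by its only probe set. DUSP19 was highest in CL-1 (8.96, against 7.33 to 7.98), and DUSP23 in GL-1 (7.52, against 6.27 to 6.77). DUSP11, a phosphatase of RNA ends rather than of proteins, ranged from 10.49 to 11.62, and all 3 of its probe sets were lowest in GL-1. DUSP3 (7.78 to 8.63) and DUSP13 (8.01 to 8.43) varied by less than 1. DUSP26 lay under the highest controls in every line, and so did DUSP18 apart from its further probe set in GL-1 (6.75, against a highest control of 6.66).

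PTPN6 encodes SHP-1, which is recruited by inhibitory receptors of blood cells and dampens antigen receptor and cytokine signals. It read 12.24 in 17-71 with 10.25 in GL-1, against 8.60 in CL-1, 6.96 in CLGL-90 and 6.72 in CLL-1390. Both B-labelled lines thus lay above every T-labelled line, and the values in CLGL-90 and CLL-1390 were barely above their highest controls (6.76 and 6.70). The other probe set of PTPN6 did not show this: it ranged from 6.66 to 7.16 and was lowest in CL-1. It lay barely above the highest control in every line, so it is a weak check. Of 8 myeloid marker genes, 5 differed in the same direction and 3 did not. LYZ, S100A8, S100A9 and SPI1 differed by 3.81 to 8.51 between the group means, and LYZ alone of the 8 passed limma (8.51, adjusted p = 0.0227). MPO differed by 0.54, and CD14 (-0.01), CSF1R (-0.08) and ITGAM (-0.25) lay just below 0. The median over the 8 genes was 8.29 in 17-71 and 8.42 in GL-1, against 5.25, 5.29 and 5.64 in CL-1, CLGL-90 and CLL-1390. Above their controls lay 6 and 5 of the 8 in the B-labelled lines and 2 or 3 in the T-labelled lines, and MPO in none. The part of these genes in the PTPN6 result was not tested.

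PTPN22, which works with the kinase CSK against Src-family kinases in lymphocytes, was also higher in both B-labelled lines. It read 8.14 in 17-71 and 8.20 in GL-1, against 5.06 in CL-1, 6.18 in CLGL-90 and 7.45 in CLL-1390. Its second probe set ordered the 5 lines in the same way, with 6.77 in 17-71 and 6.998 in GL-1, against 5.24 in CL-1, 5.77 in CLGL-90 and 6.10 in CLL-1390. PTPN22 lay at background in CL-1 and CLGL-90. PTPN1, the phosphatase PTP1B of the endoplasmic reticulum, was 7.71 in both 17-71 and GL-1, against 7.40, 6.85 and 7.01 in CL-1, CLGL-90 and CLL-1390. The shift was small, and the groups did not overlap.

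PTPN4, a FERM and PDZ domain phosphatase, marked CLGL-90. It stood at 11.20 there, against 5.93 in 17-71, 6.73 in GL-1, 6.98 in CL-1 and 6.73 in CLL-1390, a gap of 4.22 to the nearest line. The second probe set was dimmer and also highest in CLGL-90, at 5.78 against 3.94 to 4.32, although that value lay under the highest control. CLGL-90 also had 6 of 7 cytotoxic and natural killer marker genes above its highest control, with a median of 10.72, where the other lines had 1 to 3 and medians of 5.27 to 5.55. The part of that programme in the PTPN4 value was not tested. PTPN12, or PTP-PEST, which acts on cytoskeletal proteins, was likewise highest in CLGL-90 (12.80) and stood at 11.60 in 17-71, 12.08 in GL-1, 10.51 in CL-1 and 10.72 in CLL-1390.

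PTPN9, a phosphatase of secretory vesicles, was lower in CLL-1390 than in every other line. It read 8.15 there, against 10.36 in 17-71, 10.19 in GL-1, 10.60 in CL-1 and 10.79 in CLGL-90. Of its 3 further probe sets, 2 gave the same low value in CLL-1390 (7.73 and 7.78, against 9.41 to 10.32), and the dim remaining one was lowest in GL-1 (5.28) with CLL-1390 next (5.48). CL-1 was set apart by PTPN21, a FERM domain phosphatase, at 8.33, where the other 4 lines lay at background (6.15 in 17-71, 6.07 in GL-1, 5.92 in CLGL-90 and 5.78 in CLL-1390). PTPN11, which encodes SHP-2, an enzyme that promotes RAS and ERK signalling, read 8.14 in CL-1, against 6.23 in 17-71, 6.73 in GL-1, 6.63 in CLGL-90 and 6.09 in CLL-1390. PTPN21 and PTPN11 each had 1 probe set, so that neither could be checked by another.

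The remaining cytosolic enzymes varied by less than log2 2. PTPN2, which restrains JAK and STAT proteins, read 10.12 in 17-71, 9.82 in GL-1, 10.44 in CL-1, 9.64 in CLGL-90 and 9.35 in CLL-1390. A second probe set ranged from 8.54 to 9.55 and was also lowest in CLL-1390, and the remaining one was at background. PTPN7, a haematopoietic phosphatase of ERK and p38, read 6.39 in 17-71, 6.92 in GL-1, 6.96 in CL-1, 7.15 in CLGL-90 and 6.88 in CLL-1390. PTPN23, an endosomal protein, lay between 6.88 and 7.40. PTPN13, which binds the death receptor FAS, varied by 0.32 in one probe set and by 2.11 in a second that lay at background in every line. PTPN3, PTPN14 and PTPN18 did not exceed the highest controls, and PTPN5 did so in CLGL-90 alone, at 7.30 against 5.84 to 6.37 in the other 4 lines.

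Of the receptor-type phosphatases, 11 of 20 lay at or under the highest control in every line. These include PTPRJ, which encodes CD148 of blood cells (5.44 to 6.51), PTPRO (5.48 to 5.77), and PTPRZ1, known from the brain (5.60 to 6.07). PTPRB and PTPRR, which lie next to each other on chromosome 10 of the reference assembly, were both among them. PTPRA, which activates Src-family kinases, was the steadiest of those above background, at 10.36 to 10.58. PTPRE, its closest relative, was highest in 17-71 at 8.45, against 6.52 in GL-1, 6.75 in CL-1, 7.28 in CLGL-90 and 6.11 in CLL-1390.

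PTPRM and PTPRT belong to the family whose extracellular parts bind the same molecule on neighbouring cells. PTPRM stood at 10.06 in CLL-1390, against 6.54 in 17-71, 6.31 in GL-1, 7.25 in CL-1 and 6.75 in CLGL-90. Its second probe set was also highest in CLL-1390 (6.59, against 4.98 to 5.49), yet under the highest control. PTPRT was also raised in 1 line, at 9.84 in CLGL-90, against 7.37 in 17-71, 7.42 in GL-1, 7.30 in CL-1 and 7.62 in CLL-1390. None of its 3 further probe sets showed this: they varied by 0.36 to 0.72. In CLGL-90 they read 5.76, 6.66 and 5.83, all under its highest control (6.76), so they are a weak check of that value. PTPRU, of the same family, was likewise highest in CLGL-90 at 8.47, against 7.45 in 17-71, 7.54 in GL-1, 7.58 in CL-1 and 7.77 in CLL-1390, and PTPRK was at background throughout. PTPRF, or LAR, was highest in GL-1 at 9.00 and lowest in CLL-1390 at 7.56. A further probe set of PTPRF gave a wider spread, with 8.31 in GL-1, 7.45 in CL-1 and 6.41 in CLGL-90, against 5.87 in CLL-1390 and 4.86 in 17-71, and the remaining one varied by 0.61. PTPRS and PTPRN exceeded the highest control only in CL-1, at 6.87 and 6.75.

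**Figure D4:**
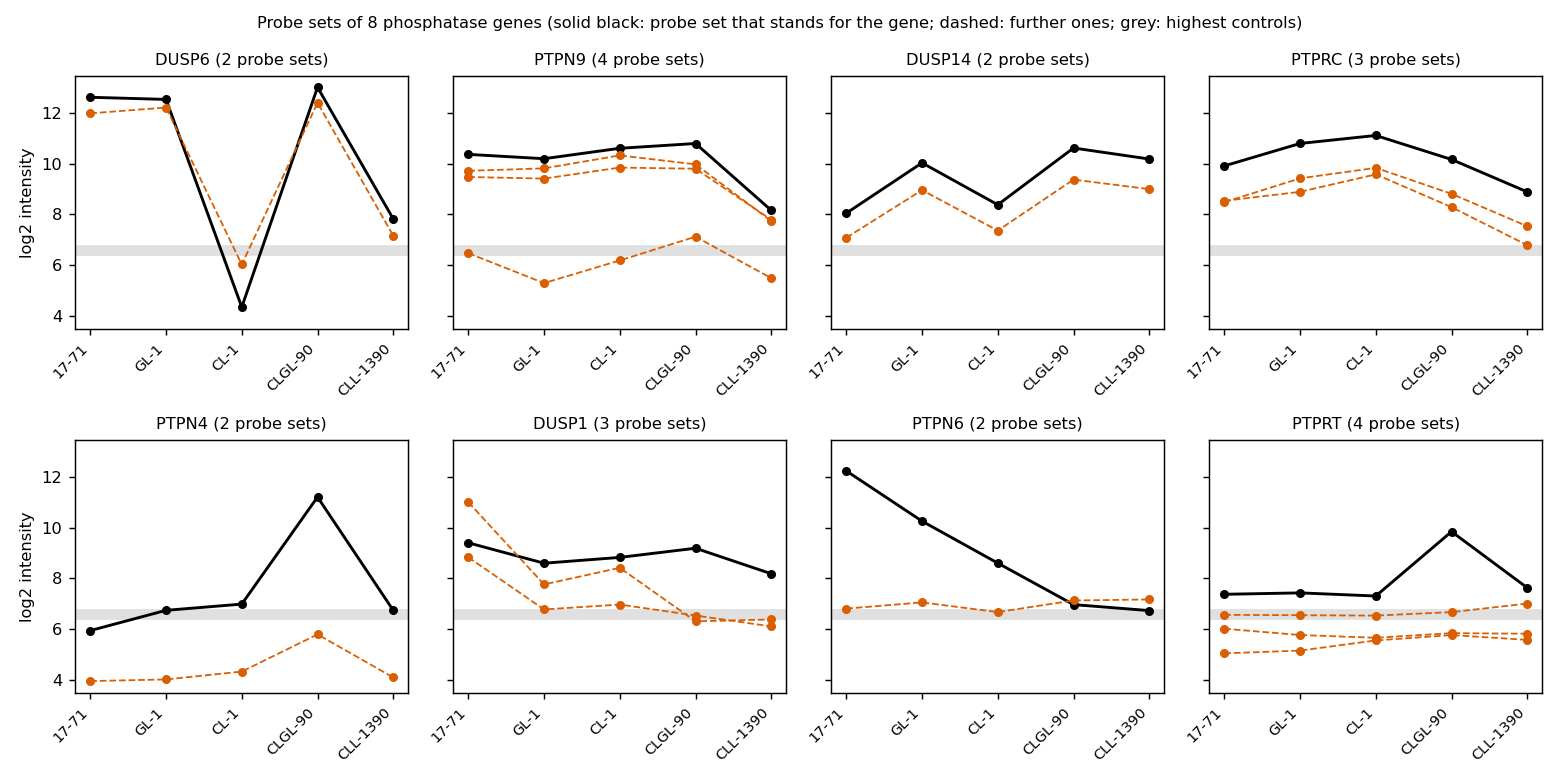
Log2 intensity of every probe set of 8 phosphatase genes in the 5 lines, with the probe set that stands for the gene in solid black, further ones dashed and the range of the highest non-dog controls in grey. DUSP6, DUSP14 and PTPRC repeat their pattern in each probe set, whereas the further probe sets of PTPN6 and PTPRT are flat and lie at or near background.

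Over all genes, agreement between probe sets was partial. The 17 varying genes had 14 further probe sets, in 9 genes. Of these 14, 9 had the same highest line as the probe set that stood for the gene, and 10 the same lowest line. Among the 6 that varied by log2 2 or more themselves, all 6 shared the lowest line and 4 the highest. Another 4 further probe sets of 3 genes (DUSP1, PTPN13 and PTPRF) varied by log2 2 or more although the gene did not.

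The comparison of B-labelled with T-labelled lines asked whether phosphatases follow the labelled lineage. No phosphatase gene passed limma over all 14162 genes: 0 of 52 were higher, where 0.00706% of all genes (1 gene) were called higher, and 0 of 52 were lower, where 0% were called lower. At an unadjusted p under 0.05, 4 of 52 were higher (PTPN6, DUSP7, PTPN1 and PTPN22), where 1.89% of all genes were, and 0 were lower, where 1.63% were. The median difference was 0.02 over the 52 genes and -0.03 over all genes tested, and 29 of the 52 were above 0, where 45.1% of all tested genes were. By class the median was 0.46 for MAP kinase phosphatases, -0.06 for atypical dual-specificity phosphatases, 0.07 for PTPN and -0.03 for PTPR genes.

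PTPN6 averaged 11.24 ± 1.40 in B-labelled lines and 7.43 ± 1.02 in T-labelled lines (SD, n = 2 and 3), a difference of 3.82 (SE 0.86, limma adjusted p = 0.9999) in the same direction in both B-labelled lines. The other probe set of PTPN6 differed by -0.06, and with the median of both probe sets the difference was 1.88. DUSP6 had a larger difference of 4.19 (SE 2.59), but CLGL-90 lay above both B-labelled lines. Without CL-1 the DUSP6 difference was 2.16, and with CLGL-90 as a group of its own 6.50. DUSP7 differed by 1.48 (SE 0.41), PTPN22 by 1.94 (SE 0.72) and PTPN1 by 0.63 (SE 0.23). All T-labelled values of DUSP7 lay under their highest controls, and its difference was 0.57 with values raised to those controls and 0.98 without GL-1. The limma adjusted p was 0.9999 for each of these genes.

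The largest differences below 0 were those of genes that were high in a single T-labelled line. PTPN4 differed by -1.97 (SE 1.52), PTPRM by -1.60 (SE 1.07), DUSP22 by -1.07 (SE 1.08) and PTPRT by -0.86 (SE 0.83), all with a limma adjusted p of 0.9999. Without CLGL-90, PTPN4 stood at -0.52 and PTPRT at -0.07, and without CLL-1390 PTPRM stood at -0.58. With PTPN4, PTPRM and PTPRT, PTPRU (-0.45, SE 0.32) and PTPN7 (-0.34, SE 0.24) made up the 5 genes with the lowest unadjusted p below 0. Without CLGL-90 PTPRU stood at -0.18, and PTPN7 stood at -0.07 without 17-71 and at -0.61 without GL-1. PTPRT stood at -1.34 without CL-1 and at -0.03 with the median of its probe sets.

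Both B-labelled values lay above every T-labelled value in 6 of 52 genes, where 6.12% of all genes did so: PTPN6, PTPN22, DUSP7, PTPN1, DUSP3 and PTPN18. Of these, PTPN18 lay at background in every line, and DUSP3 was separated by 0.01. Both lay below every T-labelled value in 2 of 52 (PTPRM and PTPRU), where 9.26% of all genes did so.

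**Figure D5:**
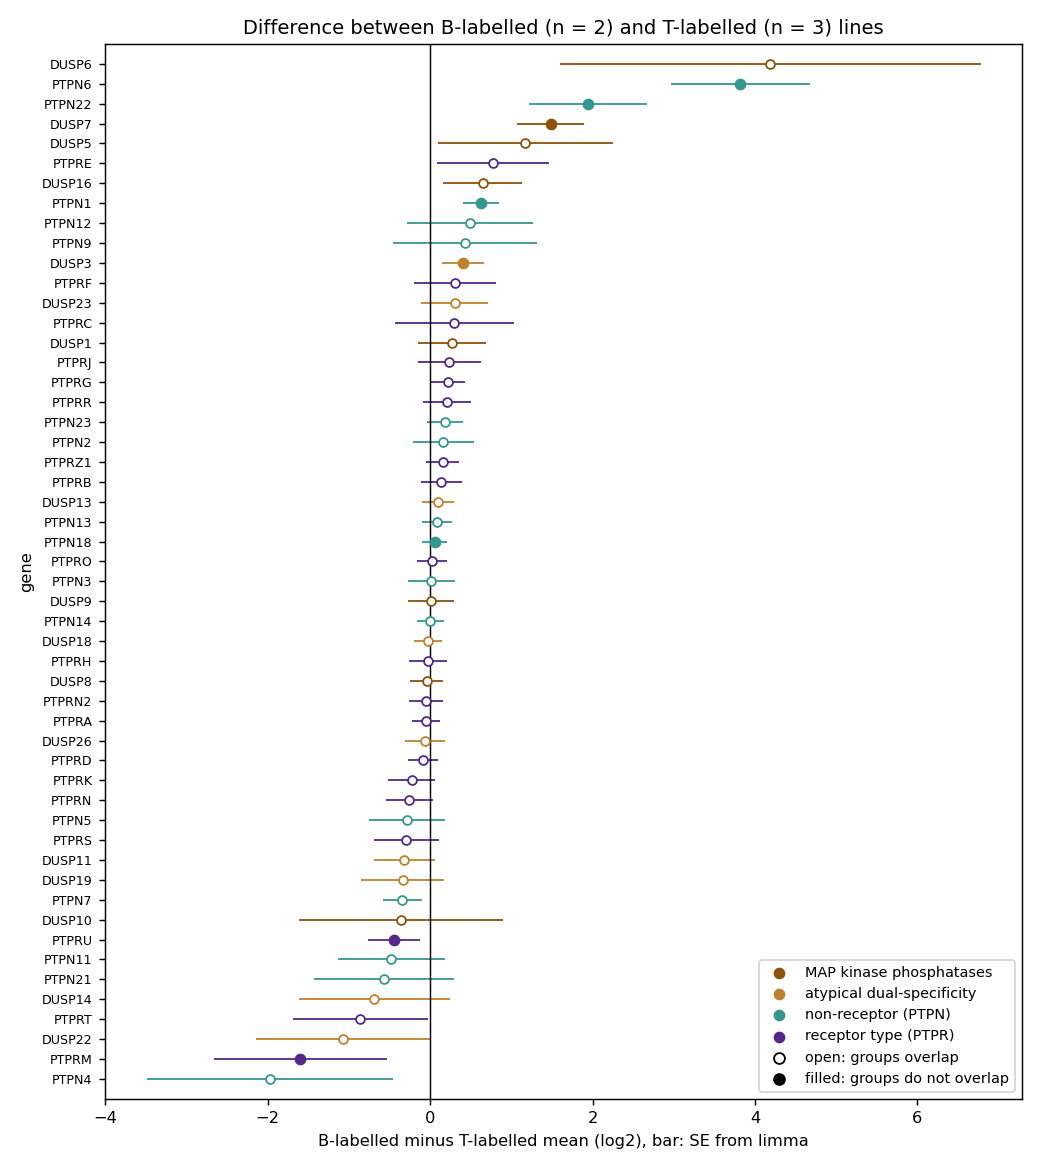
Difference between the means of B-labelled and T-labelled lines on the log2 scale (horizontal axis) with its limma SE, for the 52 tested phosphatase genes, coloured by class. Filled points are the 8 genes whose groups do not overlap, and DUSP6 has the largest difference and the widest SE.

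Single lines were set apart by 7 phosphatase genes, each log2 2 or more from every other line. CLGL-90 lay above by that much in 3 of 52 (PTPN4, PTPRT and DUSP22), where 0.621% of all genes did so, and below in 0, where 0.169% did so. CL-1 lay above in 1 (PTPN21), where 0.89% did so, and below in 1 (DUSP6), where 0.395% did so. CLL-1390 lay above in 1 (PTPRM), where 0.381% did so, and below in 1 (PTPN9), where 0.254% did so. No phosphatase gene met this limit in the B-labelled lines by the probe set that stood for it. For 17-71 the shares of all genes were 0.734% above and 0.247% below, and for GL-1 they were 0.346% above and 0.148% below. PTPN6 came near it in 17-71, with 1.98 above GL-1. A further probe set of DUSP1 met it there, 2.59 above the nearest line. With the probe set of highest variance for each gene, 1 phosphatase gene lay above in 17-71, where 1.02% of all genes did so. With values raised to the highest controls, the gaps of PTPN4, PTPRM, PTPRT and PTPN9 stayed at 4.22, 2.81, 2.22 and 2.04, while those of DUSP22 (1.90), PTPN21 (1.57) and DUSP6 (1.42) fell below 2. PTPN9 missed the limit after another quantile normalization and with the median of its probe sets, both of which left 0 genes below in CLL-1390.

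Several kinases and docking partners of these phosphatases varied between the lines. Of 21 proximal tyrosine kinases and adaptors with a probe set, 10 varied by log2 2 or more, where 14.2% of all genes did. The difference between B-labelled and T-labelled lines was above 0 in 13 and below 0 in 8 (median 0.20), where 45.1% of all genes were above 0, and 0 passed limma. BTK was at background in CL-1 (3.93) and CLGL-90 (4.68) and high elsewhere, with 11.23 in CLL-1390, 11.46 in GL-1 and 11.52 in 17-71. LCK, a substrate of CD45, PTPN22 and DUSP22, stood at 5.58 in 17-71, 10.65 in GL-1, 8.88 in CL-1, 11.78 in CLGL-90 and 11.44 in CLL-1390. It was thus at background in the line with the highest PTPN6. LCP2, an adaptor downstream of these kinases, was at background in CL-1 (3.99) and at 10.08, 10.23, 10.54 and 10.70 in 17-71, GL-1, CLGL-90 and CLL-1390.

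Of 17 tested receptors and adaptors that recruit SHP-1 or SHP-2, 12 differed above 0 and 5 below (median 0.06), and 0 passed limma. Of all tested genes, 45.1% were above 0. CD300A, an inhibitory receptor, read 8.36 in 17-71 and 8.49 in GL-1, against 5.64, 5.70 and 5.99 in CL-1, CLGL-90 and CLL-1390, the same grouping as PTPN6. SIT1, a docking adaptor of lymphocytes, was lowest in CL-1 (6.11) and read 8.78, 8.56, 10.39 and 9.60 in 17-71, GL-1, CLGL-90 and CLL-1390. GAB1, a docking partner of SHP-2, read 7.99 in 17-71, 5.01 in GL-1, 7.46 in CL-1, 6.80 in CLGL-90 and 4.09 in CLL-1390, while CD22 and PECAM1 were at background in every line. Of 23 MAP kinases and activators, 9 differed above 0 and 14 below (median -0.07). Of 21 ERK-list genes 15 differed above 0 and 6 below (median 0.30), against the same 45.1% of all tested genes above 0. In either list 0 passed limma. The median level of the ERK list was 8.32 in 17-71 but 6.63 in GL-1, against 7.21, 7.12 and 6.74 in CL-1, CLGL-90 and CLL-1390. The higher level was thus not shared by both B-labelled lines.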

How the data were processed

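Total RNA of 5 lines was measured on 1 array each. The authors deposited log2 intensities, 1 per probe set and array, made with GCRMA (background correction, normalization and summary) per the submitters' processing notes; the version of GCRMA and its settings are not given there. Of 43035 probe sets, 111 are Affymetrix controls. Among the other 42924, the annotation gave 1 gene symbol to 29254, several to 439 (not used) and none to 13231. In the RefSeq gene table of assembly UU_Cfam_GSD_1.0, used for names and neighbours, 54 of the 55 gene IDs were listed, with the same symbols.

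A gene was its probe set of highest mean and was tested if this reached log2 5 on 2 arrays. The comparison by label used limma 3.58.1 and R 4.3.3 (lmFit, eBayes, residual df 3, prior df 1.74) on all tested genes. It was two-sided, at a Benjamini-Hochberg adjusted p of 0.05. It was also run on simulated data with 200 genes shifted between the groups. There it recovered 0% of them at a shift of log2 1, 36.5% at log2 2, 72.5% at log2 4 and 88.5% at log2 6. Most differences of log2 2 or less would thus be missed. P-values measure the variation between lines, and the number of arrays limits precision. Single lines were described without a test.

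Genes were named by a rule. It took 14 listed lymphoid genes, the phosphatases that vary by log2 2 and reach log2 8, and the 3 largest gaps per line and side. It also took the 5 lowest p per direction and 3 genes per signalling list. JUN, JUNB, ETV4, RASA1, FOSL1, IER2, SPRY4, CD22, PECAM1 and the myeloid markers were chosen after their values were seen. The members and lists were chosen with earlier results of these data known. Alternatives were another filter, other probe set rules, a floor at the controls, other limits and each line left out.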

Additional observations from a re-analysis of the deposited data

How the results depend on the processing

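In limma no phosphatase gene passed under any of the 14 alternatives, while 0 to 11 of all genes did, against 1 in the reported comparison. At an unadjusted limma p under 0.05 there were 4 of 52 phosphatase genes (3.52% of all genes), and 2 of 26 with the filter at log2 7 (3.96%). When 1 T-labelled line was left out there were 2 to 4 (4.2% to 5.44% of all genes), 2 without CL-1. The differences of the 10 genes named for that comparison kept their sign in every alternative that tested them. The 8 genes without overlap, where 15.4% of all genes had none, became 18 once CLGL-90 formed a group of its own (28.5% of all genes), and 14 to 19 when 1 line was left out (25.6% to 40.1% of all genes), settings that leave fewer lines to overlap. The 17 genes varying by log2 2 or more became 11 with values raised to the highest control, 28 at a limit of log2 1 and 8 at log2 3, and 11 to 16 when 1 line was left out, 11 without CLL-1390. The 7 genes set apart in 1 line became 4, 15 and 2 under the same 3 settings. Shares of all genes are not given beside these counts of varying and set-apart genes. No change particular to phosphatases can therefore be read from them. With the median of all probe sets, the range of PTPN6 was 2.58 and that of PTPRT 0.32. No paired analysis was possible because the lines are unrelated and carry no shared replicate number. Values near 6.4 to 6.8 and below cannot be told from background by the highest controls, which were taken as not added to the samples.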

Other observations

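Beside PTPN21, which read 8.33 in CL-1 and 5.78 to 6.15 elsewhere, the nearest protein-coding genes in the order of the reference assembly were read as well, 2 on each side, a choice made after the values of PTPN21 were seen. Of these 4 neighbours, 3 were highest in CL-1. SPATA7 stood at 11.70 in CL-1, against 8.63 to 10.53 in the other 4 lines, ZC3H14 at 12.44 against 11.05 to 11.45, and EML5 at 7.38 against 6.59 to 6.93. KCNK10 lay at background in every line. The same count was 3 of 4 for PTPN4 in CLGL-90, all by small gaps of 0.08 to 0.33, and 2 of 2 for DUSP6 in CL-1, where DUSP6 itself is lowest. Some of these highest values lay under the highest control of their line: EPB41L5 (4.67) and SCTR (6.58) beside PTPN4, and KITLG (6.21) beside DUSP6. Over the 7 genes set apart in 1 line, CL-1 was the highest line for 9 of 20 measured neighbours. Among all 2006 genes varying by log2 2 or more CL-1 was highest for 30.8%, but most of these neighbours varied less. The matching share over all tested genes is not given, and PTPN21 and DUSP6 were picked by their CL-1 values. Nothing about position on the chromosome can therefore be read from these counts. PTPRM, high in CLL-1390, had 2 measured neighbours, RAB12 and MTCL1, and neither was highest in CLL-1390.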
